A study of Homo sapiens with 6 samples.

Results

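The mevalonate arm of cholesterol synthesis was followed through 9 of its enzymes, ACAT2, HMGCS1, MVK, PMVK, MVD, IDI1, FDPS, FDFT1 and SQLE, which cover steps from acetoacetyl-CoA to squalene and its epoxide. The 9 genes were taken by symbol from the 23228 genes in the count tables, and they do not cover every step of the arm. RNA came from RL95-2, an established human endometrial carcinoma line, so that all values describe 1 cell line. In the 3 control libraries the cells were kept for 24 h in serum-free RPMI mixed 1:1 with DMEM, and in the 3 ADP-CM libraries for the same time in serum-free RPMI mixed 1:1 with adipocyte-conditioned medium. That medium was DMEM in which mature adipocytes from human visceral fat had been cultured. Both groups lacked serum, and both had been grown in RPMI with serum before. The study used the comparison to ask how an adipocyte environment changes endometrial cancer cells. The labels do not say whether replicates were separate cultures, so the p-values below measure only the spread between these libraries.

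Cells build cholesterol from acetyl-CoA. Acetoacetyl-CoA and a further acetyl-CoA form HMG-CoA, which is reduced to mevalonate, phosphorylated and decarboxylated to isopentenyl diphosphate, and joined stepwise into farnesyl diphosphate. From farnesyl diphosphate the path divides, with squalene and the sterols on one side and ubiquinone, dolichol and the lipid anchors of prenylated proteins on the other. Genes of the sterol route are classical targets of SREBP2, a membrane-bound transcription factor that SCAP escorts to the Golgi when sterols are scarce and that INSIG proteins hold back when sterols are plentiful.

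Of the 9 enzymes, 7 had less RNA in ADP-CM and none had more. HMGCS1 fell most, to 0.499 of its control level, followed by MVK at 0.633 and IDI1 at 0.675, while FDFT1, MVD, SQLE and FDPS lay between 0.763 and 0.798. PMVK and ACAT2 did not pass the test. Genes were called at an adjusted p below 0.01 (quasi-likelihood test of edgeR, Benjamini-Hochberg over the 12663 genes tested, all 9 enzymes included). By that limit 13.0% of all tested genes were lowered and 13.5% raised, against 7 and 0 of the 9 enzymes. With a fold change over 1.5 as well, 1.14% of tested genes were lowered, and of the enzymes HMGCS1 and MVK were. Every ADP-CM library lay below every control library for 8 of the 9 enzymes and for 22.8% of all tested genes. The median log2 fold change, ADP-CM against control, was -0.35 over the 9 enzymes and -0.0023 over all tested genes.

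**Figure D1:**
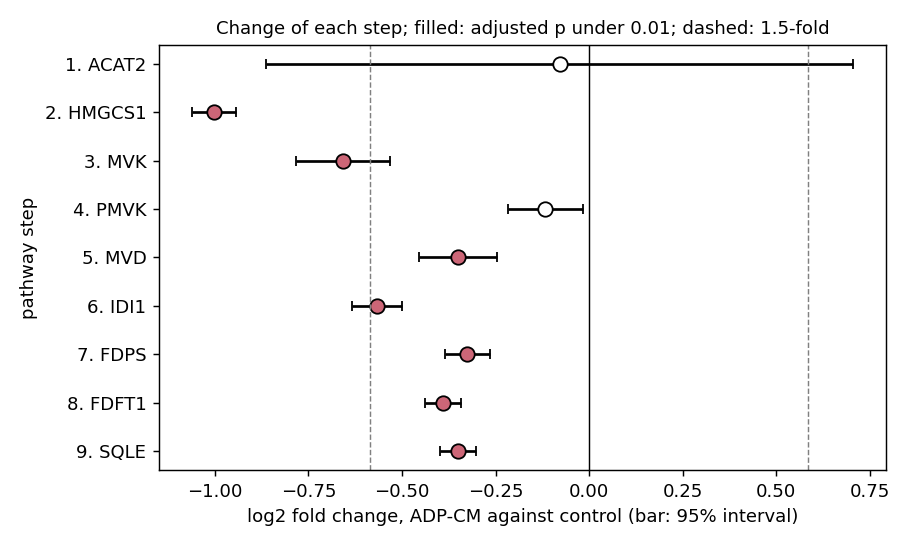
Log2 fold change of ADP-CM against control for the 9 enzymes in pathway order. Points are edgeR estimates and bars their 95% confidence intervals, filled points passed an adjusted p of 0.01 and dashed lines mark a 1.5-fold change; HMGCS1 lies at -1.002, the interval of ACAT2 reaches from -0.86 to 0.70, and all points lie below 0.

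The stretch of DNA just before a gene's start is where factors of its promoter bind, and it is shown here for an enzyme that fell most (HMGCS1), for the enzyme with the most matches of the motif searched (MVK), for IDI1, and for PMVK, which was not called. Sequences are from the RefSeq promoter table (GRCh38.p14), which had entries for 6 of the 9 enzymes, all but ACAT2, FDFT1 and SQLE. Each window of 250 bases was placed by an exact and unique match in GRCh37, the build of the counts. Letters in capitals mark CCAAT on either strand (CCAAT or ATTGG), the core bound by the factor NF-Y, which is known to act beside SREBP at sterol genes. The windows are chr5:43313515-43313764 on the minus strand for HMGCS1, chr12:110011349-110011598 on the plus strand for MVK, chr10:1095060-1095309 on the minus strand for IDI1 and chr1:154909196-154909445 on the minus strand for PMVK. Each is written 5′ to 3′ in the direction of the gene and ends at the base before a start in RefSeq. These starts differ from the ends of the genes given below, which are GENCODE's: the MVK window lies wholly and the HMGCS1 window partly inside the gene, while those of IDI1 and PMVK lie just before it.
HMGCS1: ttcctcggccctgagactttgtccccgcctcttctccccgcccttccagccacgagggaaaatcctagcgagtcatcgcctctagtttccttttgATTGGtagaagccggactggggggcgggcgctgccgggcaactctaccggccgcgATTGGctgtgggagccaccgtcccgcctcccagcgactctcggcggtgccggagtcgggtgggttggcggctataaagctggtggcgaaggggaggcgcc
MVK: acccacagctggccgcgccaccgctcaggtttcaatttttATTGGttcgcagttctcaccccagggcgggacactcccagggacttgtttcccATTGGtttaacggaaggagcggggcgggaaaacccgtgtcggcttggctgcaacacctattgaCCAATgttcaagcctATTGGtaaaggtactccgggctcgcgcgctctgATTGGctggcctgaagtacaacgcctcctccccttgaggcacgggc
IDI1: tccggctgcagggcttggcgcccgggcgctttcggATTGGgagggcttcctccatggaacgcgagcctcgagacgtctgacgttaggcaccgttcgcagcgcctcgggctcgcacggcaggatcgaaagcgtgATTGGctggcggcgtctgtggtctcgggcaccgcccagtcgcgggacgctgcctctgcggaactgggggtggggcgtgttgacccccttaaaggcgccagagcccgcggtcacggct
PMVK: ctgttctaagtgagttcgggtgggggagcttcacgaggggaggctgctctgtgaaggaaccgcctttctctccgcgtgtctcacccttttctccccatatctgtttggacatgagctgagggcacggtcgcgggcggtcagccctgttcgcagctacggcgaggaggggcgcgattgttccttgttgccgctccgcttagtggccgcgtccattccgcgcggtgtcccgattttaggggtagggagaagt

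MVK held CCAAT 5 times, with first letters 210, 157, 94, 79 and 46 bases before the start. Among all 34943 promoter windows of the table, 0.321% held it 5 times or more. HMGCS1 held it 155 and 100 bases before the start of the window shown and not in its other window. IDI1 held it 215 and 117 bases before the start shown, and 3 and 0 times in its other windows, where an adjoining CCAAT and ATTGG share letters. MVD and FDPS held it 3 times each, while 2.93% of all windows held it at least 3 times, and PMVK held none. At least 1 CCAAT was thus found in 6 of the 9 windows of the enzymes, which belong to 5 of 6 genes, and in 32% of all windows. The GC box letters GGGCGG, on either strand, were found for 6 of 6 enzymes and in 42.5% of all windows. The letters TCACNCCAC, a strict form of the sterol regulatory element on either strand, were found for 0 of 6 and in 0.881% of all windows. These matches describe the letters of the windows, and binding was not measured.

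ACAT2 is the cytosolic thiolase that joins acetyl-CoA units into acetoacetyl-CoA, and its gene lies at chr6:160183077-160200144 (GRCh37, plus strand). It was counted with 11, 6 and 13 reads in control replicates 1 to 3 and with 8, 12 and 11 in ADP-CM. The groups overlapped, and the log2 fold change was -0.08 with a 95% interval from -0.86 to 0.70 (adjusted p = 0.899). At these counts a change inside that interval, from 0.550 to 1.63 of control, was not detectable. In the annotation ACAT2 shares 22.2% of its exonic bases with genes on the opposite strand. TCP1, a chaperonin subunit counted at 5927 to 7769 reads, shares 17.2% of the exonic bases of ACAT2. SOD2, counted at 1328 to 2064 reads, shares 5.04%. The strand setting of the counting is not given in the sources used here, so the count of ACAT2 is uncertain.

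HMGCS1, the cytosolic HMG-CoA synthase, lies at chr5:43287572-43313614 on the minus strand, with the promoter shown above. Its reads numbered 3794, 3821 and 3754 in control and 1974, 2110 and 2118 in ADP-CM. In TMM-normalised CPM, which scale counts to library size, these were 233.9, 226.3 and 219.5 against 109.0, 115.1 and 115.2. The lowest control library was far above the highest ADP-CM library. The mean went from 226.6 ± 7.17 to 113.1 ± 3.50 CPM (SD, n = 3 each). The log2 fold change was -1.002 (SE 0.029, adjusted p = 1.85e-38), which ranked 44 from the lowest among the 12663 tested genes. An antisense lncRNA that was not among the counted genes shares 37.7% of the exonic bases of HMGCS1 on the opposite strand.

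MVK, mevalonate kinase, adds the first phosphate to mevalonate, and its gene lies at chr12:110011060-110035930 on the plus strand. Its 450, 475 and 489 control reads faced 313, 327 and 338 reads in ADP-CM. In CPM these were 27.7, 28.1 and 28.6 against 17.3, 17.8 and 18.4. All ADP-CM libraries were lower, by far more than the libraries of a group differed. The log2 fold change was -0.66 (SE 0.063, adjusted p = 1.40e-13), from 28.2 ± 0.430 to 17.8 ± 0.544 CPM (SD, n = 3 each).

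PMVK, phosphomevalonate kinase, adds the next phosphate and lies at chr1:154897216-154909195 on the minus strand. Its values were 43.4, 39.5 and 40.8 CPM in control and 38.5, 37.9 and 37.6 CPM in ADP-CM. The groups did not overlap, but the gap between the lowest control and the highest ADP-CM library was smaller than the range of the control libraries. The log2 fold change of -0.12 (SE 0.050, 95% interval from -0.22 to -0.017) missed the limit with an adjusted p of 0.0578.

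MVD decarboxylates mevalonate diphosphate to isopentenyl diphosphate, and its gene lies at chr16:88718343-88729569 on the minus strand. It measured 42.7, 41.3 and 44.7 CPM in control against 35.8, 33.6 and 31.5 CPM in ADP-CM. The groups were apart, and MVD had the largest spread within ADP-CM relative to its level among the called enzymes. The mean was 42.9 ± 1.71 CPM in control and 33.6 ± 2.16 CPM in ADP-CM (SD, n = 3 each). MVD thus had a log2 fold change of -0.35 (SE 0.052, adjusted p = 1.18e-07).

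IDI1, isopentenyl-diphosphate isomerase, makes the dimethylallyl diphosphate that primes chain growth, and its gene lies at chr10:1085092-1095059 on the minus strand. The control libraries held 118.8, 123.6 and 125.1 CPM and the ADP-CM libraries 80.7, 84.6 and 82.8 CPM. All ADP-CM values were well below all control values. The log2 fold change of -0.57 (SE 0.034, adjusted p = 1.67e-22) fell just short of a 1.5-fold change. IDI2-AS1, on the opposite strand, shares 15.0% of the exonic bases of IDI1 and was counted at 0 to 3 reads. The annotation holds 3 named IDI1 pseudogenes, which can take reads from the count of IDI1.

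FDPS, farnesyl diphosphate synthase, makes the branch point compound and is the target of nitrogen-containing bisphosphonates. Its gene lies at chr1:155278539-155290457 on the plus strand. Values were 150.2, 144.7 and 149.2 CPM in control and 119.4, 116.3 and 118.7 CPM in ADP-CM. No library of a group came near the other group. FDPS had a log2 fold change of -0.33 (SE 0.030, adjusted p = 4.66e-14). RUSC1-AS1, on the opposite strand over 18.6% of the exonic bases of FDPS, was counted at 3 to 9 reads, and the annotation holds 8 named FDPS pseudogenes, which can take reads from the count of FDPS.

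FDFT1, squalene synthase, commits farnesyl diphosphate to sterols. It was counted at 4993, 5163 and 5353 reads in control and 4320, 4300 and 4305 reads in ADP-CM, or 307.8, 305.8 and 313.0 against 238.6, 234.5 and 234.1 CPM. The ADP-CM libraries lay close together and below all controls. The log2 fold change was -0.39 (SE 0.024, adjusted p = 6.17e-22). SQLE, squalene epoxidase, a rate-limiting oxygen-dependent step of the sterol route, held 280.5, 278.4 and 272.2 CPM in control and 220.8, 216.9 and 214.05 CPM in ADP-CM. Here too the groups were apart, with a log2 fold change of -0.35 (SE 0.025, adjusted p = 4.73e-19). Both are plus-strand genes, at chr8:11653082-11696904 and chr8:126010739-126034525.

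**Figure D2:**
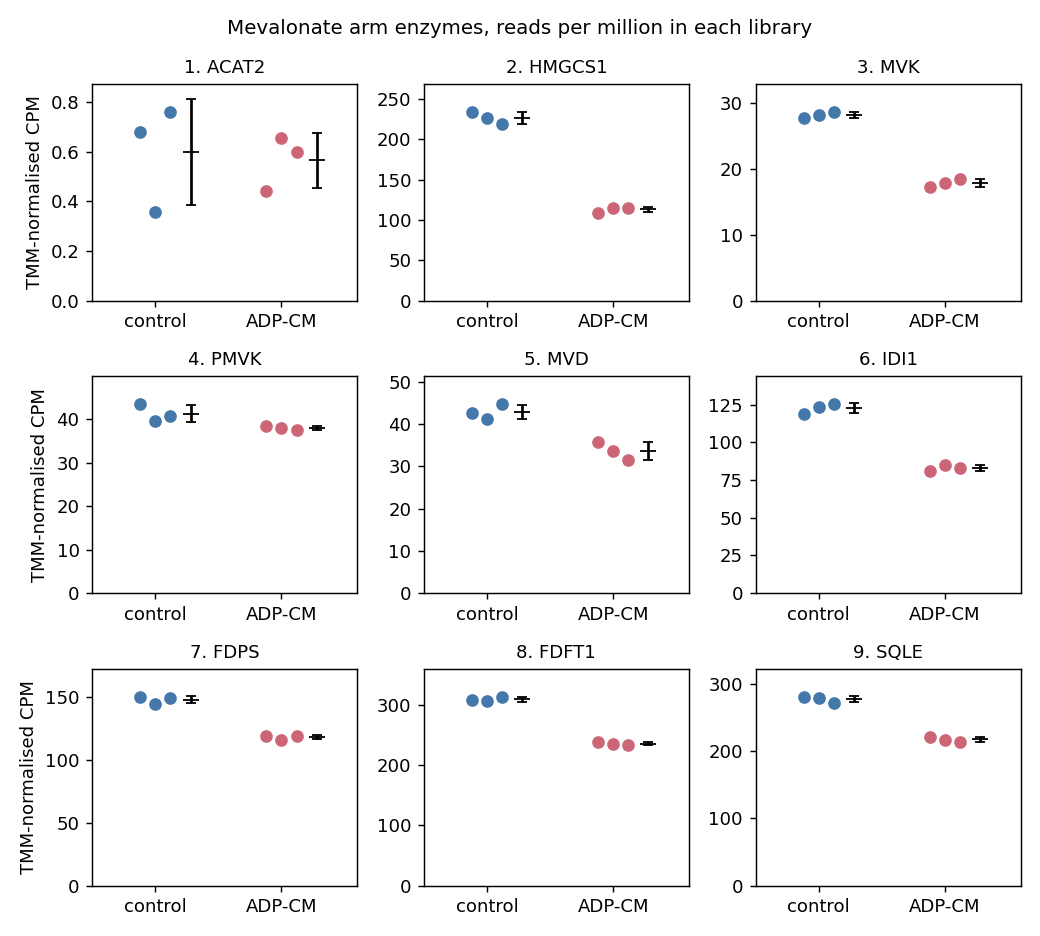
TMM-normalised CPM of each enzyme in each library, with an axis of its own per gene; coloured points are libraries and the black marks the group mean ± SD. The ADP-CM points lie below the control points for 8 enzymes, and for ACAT2 the groups overlap at under 1 CPM.

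Summed over the 9 enzymes, the control libraries held 1206, 1188 and 1194 CPM and the ADP-CM libraries 860.5, 857.4 and 852.8 CPM. The sum in ADP-CM was 71.7% of that in control, and the libraries of a group differed by far less than the groups. HMGCS1 made up 33.5% of the fall, FDFT1 21.6%, SQLE 17.6% and IDI1 11.7%, and its own share of the enzymes' reads went from 18.9% to 13.2%. The libraries of a group were not ordered alike over the enzymes. Control replicate 2 held the lowest control value for 5 enzymes and the highest for none, and control replicate 3 held the highest for 5. Over all tested genes each library was lowest in 29.5% to 35.5%.

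The fold changes differed in size between enzymes, and the enzymes were next compared pair by pair in pathway order. MVK and HMGCS1 are neighbours in this list but are separated by a step that is not part of it. Levels per length were compared as log2 ratios of RPKM, TMM-normalised CPM per kilobase of merged exon, between each enzyme and the one before it. The ratio of MVK to HMGCS1 went from -3.45 to -3.11, a difference of 0.34. The ratio of PMVK to MVK went from 3.72 to 4.26, a difference of 0.54. For HMGCS1 over ACAT2 it went from 7.31 to 6.34, with the uncertainty of the few ACAT2 reads, and the difference of -0.97 became -0.64 without control replicate 2. The difference was -0.23 for MVD over PMVK, -0.21 for IDI1 over MVD and 0.24 for FDPS over IDI1. It was -0.064 for FDFT1 over FDPS and 0.039 for SQLE over FDFT1, the latter 0.017 without control replicate 3. For all 8 pairs the 3 ADP-CM ratios did not overlap the 3 control ratios. For SQLE over FDFT1 the gap was narrow, with control at most 0.105 and ADP-CM at least 0.110. Pairs next to each other share an enzyme, so the 8 are not separate results. How often other pairs of genes are apart in this way was not counted, so being apart cannot be read as particular to these enzymes. The exact two-sided permutation test gave p = 0.1 for each, also after Benjamini-Hochberg adjustment over the 8 pairs, which is the smallest value that 3 libraries against 3 allow, so that no pair could pass 0.05.

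Per length, SQLE and FDFT1 stood highest in control cells, at 64.3 ± 1.00 and 60.8 ± 0.740 RPKM (SD, n = 3). PMVK at 41.2 and FDPS at 39.8 RPKM followed and were the only neighbours whose libraries overlapped. Then came HMGCS1 at 34.2, IDI1 at 28.5, MVD at 9.09, MVK at 3.12 and ACAT2 at 0.227 RPKM. In ADP-CM no neighbours overlapped, and HMGCS1 at 17.1 RPKM changed places with IDI1 at 19.3 RPKM. The kinase MVK thus stood far below the enzymes on either side of it in both groups. The order of the upper 6 depends on the length taken for each gene. With the longest transcript of each gene FDFT1 was first, SQLE next and PMVK below HMGCS1 in control, where the libraries of PMVK and HMGCS1 overlapped. With the annotation's canonical transcript, a choice made after the data were seen, FDFT1 was first in control, followed by FDPS, SQLE, IDI1, HMGCS1 and PMVK. By that length the control libraries of IDI1 and HMGCS1 overlapped, as did those of HMGCS1 and PMVK, so their places are not distinct. MVD, MVK and ACAT2 held the last places under each length. The size of the gap around MVK depends on the length too. By the canonical transcript MVK stood at 9.94 RPKM in control, beside 42.3 for HMGCS1 and 41.2 for PMVK.

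**Figure D3:**
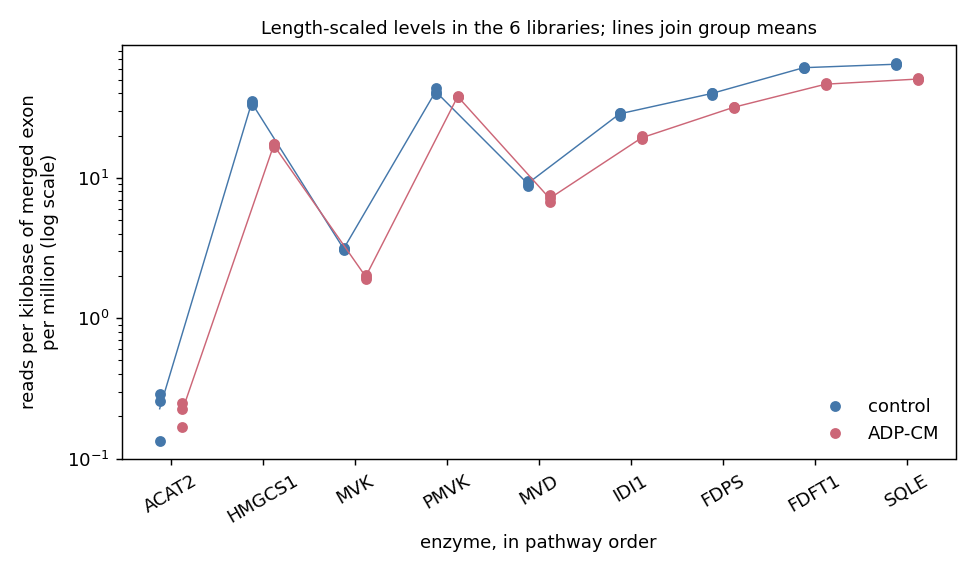
Level of each enzyme per length, in RPKM on a log axis, for control and ADP-CM libraries in pathway order; points are libraries and lines join group means as a guide. ACAT2 and MVK lie lowest, at 0.227 and 3.12 RPKM in control, and the lines of the groups run closest at PMVK and ACAT2.

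Around the arm, 4 lists of related genes were read from the same fit. Of 12 enzymes after squalene epoxide, 10 were lowered and none raised, beside 13.0% of all tested genes lowered and 13.5% raised. The median log2 fold change of these 12 was -0.37. MSMO1, the sterol methyl oxidase listed in the files as SC4MOL, went from 89.6 ± 1.32 to 60.5 ± 1.13 CPM (SD, n = 3 each; log2 fold change -0.57, adjusted p = 2.21e-20). ERG28, a scaffold of the demethylation complex listed as C14orf1, went from 78.0 to 51.6 CPM (-0.60, adjusted p = 5.30e-20), and DHCR7, the last reductase, from 93.1 to 72.2 CPM. The 2 that were not called were LBR and EBP. EBP, the sterol isomerase, had 16 to 25 reads in control and 29 to 48 in ADP-CM, with a log2 fold change of 0.75 and an adjusted p of 0.0139, and it passed the limit as raised without control replicate 1 or without ADP-CM replicate 2, where the count of raised enzymes became 1.

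Of 7 genes around acetyl-CoA and HMG-CoA, 6 could be tested, 3 were lowered and none raised. Among all tested genes 13.0% were lowered and 13.5% raised. ACSS2, which makes acetyl-CoA from acetate, had a log2 fold change of -0.41 (adjusted p = 4.05e-09), with means of 39.6 ± 2.32 and 29.8 ± 0.750 CPM (SD, n = 3 each). SLC25A1, the citrate carrier, had a log2 fold change of -0.22 (adjusted p = 9.68e-05). ACLY, which splits citrate into acetyl-CoA in the cytosol, had -0.017 (adjusted p = 0.586) and AACS, which activates acetoacetate, -0.083 (adjusted p = 0.203).

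A list of 19 non-sterol isoprenoid genes was taken mainly from the branches to ubiquinone, dolichol and protein prenylation. It also holds genes outside these branches, such as IDI2, TRIT1 and COX10. Of the 19 genes 18 were tested, 5 were lowered and 1 was raised, beside 13.0% of all tested genes lowered and 13.5% raised. The median log2 fold change was -0.072. RABGGTB, the catalytic subunit of Rab geranylgeranyl transferase, was the raised gene, with 1566, 1634 and 1643 reads in control and 2294, 2377 and 2173 in ADP-CM (log2 fold change 0.37, adjusted p = 1.69e-14). COQ2, a prenyl transferase of ubiquinone synthesis, had a log2 fold change of -0.21, and DOLPP1 and DOLK of dolichol metabolism each had -0.23. The other lowered genes, PGGT1B and FNTB, are named because they complete the count. FNTB, with 24 to 30 reads in control and 21, 6 and 21 in ADP-CM, had a log2 fold change of -0.91 (adjusted p = 0.00969). The count of 5 became 2 with DESeq2 and 3 without any one of the control replicates 1, 2 and 3. GGPS1, which draws on farnesyl diphosphate to make the geranylgeranyl unit, is named for its place at the branch and had -0.033 (adjusted p = 0.639).

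Of the 7 genes of SREBP control, INSIG1 and SREBF2 were lowered and SREBF1 was raised. Beside the 13.0% of all tested genes lowered and 13.5% raised, these counts are not read as a trait of the list. INSIG1, the sterol-dependent retention protein and itself a known SREBP target, had 1104, 1214 and 1218 reads in control and 851, 844 and 808 in ADP-CM, a log2 fold change of -0.63 (SE 0.042, adjusted p = 9.94e-20). SREBF2, the gene of SREBP2, went from 159.8 ± 3.37 to 132.0 ± 3.74 CPM (SD, n = 3 each; -0.27, adjusted p = 1.21e-11). SREBF1, the gene of the isoforms SREBP1a and SREBP1c, went the other way, from 104.4 ± 0.831 to 142.9 ± 4.90 CPM (0.45, adjusted p = 3.85e-19). INSIG2 had 0.16 (adjusted p = 0.0258), and SCAP and the proteases MBTPS1 and MBTPS2 were not called.

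**Figure D4:**
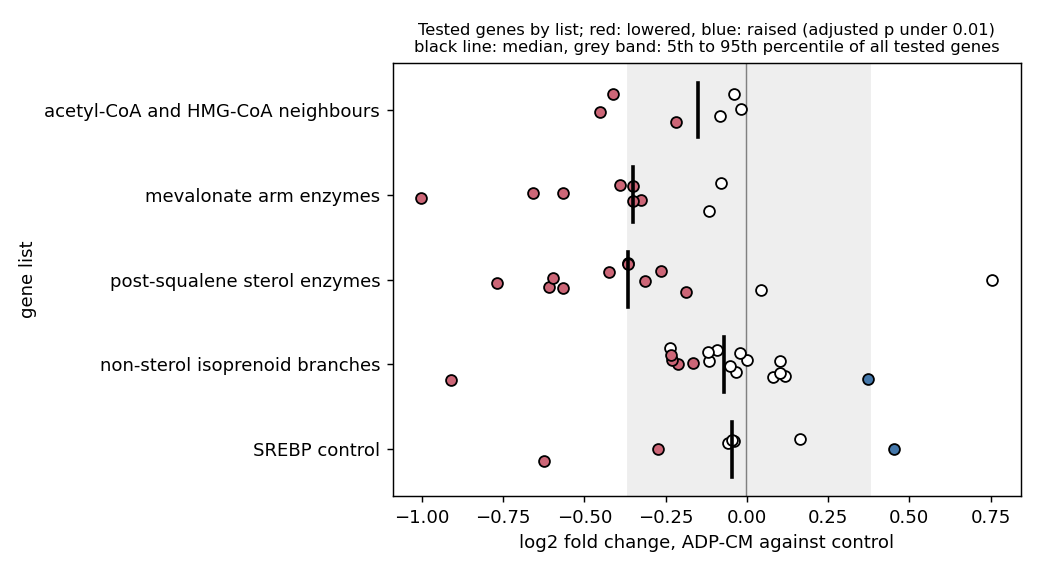
Log2 fold change of each tested gene, ADP-CM against control, for the 9 enzymes and 4 related lists; red points are lowered and blue points raised genes at an adjusted p under 0.01, open points were not called, black lines are medians, height within a row has no meaning and the grey band spans the 5th to 95th percentile of all tested genes, from -0.36 to 0.38. Medians lie at -0.35 for the enzymes and -0.37 for the steps after squalene epoxide.

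Close neighbours in the genome and in profile were also read. MVK lies head to head with MMAB, an enzyme of vitamin B12 metabolism. Their annotated starts are 325 bases apart and the genes overlap there. MMAB had 318, 356 and 383 reads in control and 250, 289 and 284 in ADP-CM, a log2 fold change of -0.49 (SE 0.073, adjusted p = 1.16e-07). The transcripts of MVK and MMAB share 2.50% of the exonic bases of MVK on opposite strands. WDR37, whose start lies 419 bases from that of IDI1, had -0.14 (adjusted p = 0.0530). SOD2, the mitochondrial superoxide dismutase, starts 484 bases inside ACAT2 on the opposite strand, so that these genes overlap too. SOD2 rose by 0.43 on the log2 scale (adjusted p = 1.26e-16). Likeness of pattern was measured as the root-mean-square distance, over the 6 libraries, of each gene's centred log2 CPM from the median profile of the 9 enzymes, for 9562 genes with a mean of at least 10 CPM. The nearest genes were GPNMB at 0.0128, S100A10 at 0.0187, OLR1 at 0.0205, RAB36 at 0.0223 and LAMB4 at 0.0240, each with a log2 fold change between -0.42 and -0.37. Of the enzymes, FDFT1 lay at 0.0112, SQLE at 0.0368 and HMGCS1 at 0.309, and ACAT2 was farthest at 0.415. The profile is the median of these same enzymes, so that one in their middle is near by construction. Of the 9562 other genes, 0 lay at least as near as FDFT1, 24 as SQLE, 30 as FDPS and 82 as MVD. For IDI1 these were 417, for MVK 1423, for PMVK 1640, for HMGCS1 8865 and for ACAT2 9449.

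The libraries held between 16262614 and 18363033 reads on genes, more in each ADP-CM library than in any control library. Reads on no gene made up 10.3% of the total in control and 11.5% in ADP-CM. All pairs of replicates differed by more than sampling noise. The labelled cell type was checked with 11 epithelial markers, all counted, whose summed level was 5663 to 5819 CPM in control and 4965 to 5068 CPM in ADP-CM. KRT7, KRT8 and KRT18 made up most of that sum, with control means of 1560, 1843 and 1508 CPM. The mean of KRT19 went from 267.5 to 148.6 CPM and that of PAX8 from 150.1 to 181.8 CPM. CLDN3 was low, with 4 to 17 reads. The hormone receptors ESR1 and PGR were low as well, PGR with at most 12 reads in any library. Of 11 adipocyte markers, 7 had at most 3 reads in every library and ADIPOQ, LEP, CIDEA, RETN and AQP7 had none. The summed adipocyte markers lay at 10.1 to 10.7 CPM in control and 10.4 to 12.2 CPM in ADP-CM, the stromal markers at 61.5 to 68.4 and 78.3 to 79.2 CPM, the leukocyte markers at 6.90 to 8.11 and 9.82 to 11.96 CPM, and the endothelial markers, with KDR at 0, at 60.7 to 66.5 and 54.5 to 61.6 CPM. Most of the adipocyte, stromal, leukocyte and endothelial sums came from 1 gene each. In control and ADP-CM, CFD had means of 9.46 and 10.4 CPM and COL1A1 of 62.3 and 76.7 CPM. CD68 had 7.43 and 10.7 CPM and CDH5 63.5 and 58.6 CPM. The part of these marker shifts in the results above was not tested.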

How the data were processed

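Poly(A) RNA of RL95-2 cells was sequenced with a stranded kit. Per the submitters' processing notes and the study's methods, the authors aligned reads to hg19 with TopHat2 and counted them on RefSeq genes with HTSeq. The deposited values are raw read counts per gene, one file per library, without normalization. Versions and the strand setting of the counting are not given in the sources used here. HTSeq leaves out reads without a unique alignment (20.5% in control, 20.7% in ADP-CM) and ambiguous reads (0.719% and 0.714%); these lines and reads on no gene stayed out of library sizes and tests.

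Counts were TMM-normalised, filtered by filterByExpr (12663 of 23228 genes kept) and compared, 3 control against 3 ADP-CM libraries, by the quasi-likelihood test of edgeR 4.0.16 in R 4.3.3, with Benjamini-Hochberg adjustment over all tested genes. Calls used an adjusted p under 0.01 and, where stated, a fold change over 1.5, the limits by which the study chose genes for its pathway analyses. The common biological coefficient of variation was 1.67%. The sources used here do not say whether same-numbered control and ADP-CM libraries were made together. Positions, lengths and overlaps came from GENCODE 44 on GRCh37, the same assembly as hg19. Alternatives were DESeq2 1.42.0, other size factors, other filters, an adjusted p under 0.05, a replicate block and each library left out.

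The 9 enzymes and the gene lists were chosen with earlier results of these data known, and the motif searches were chosen after the data were seen. Named genes were all 9 enzymes, up to 4 tested genes of each list with the smallest p plus any called against the list's direction, counted genes with a start within 1000 bases on the opposite strand, and the 5 genes nearest in profile. A few of the genes so named are left out of the text. TCP1, ACLY, LBR, EBP, PGGT1B, FNTB, GGPS1, SCAP, MBTPS1 and MBTPS2 were named after their values were seen, as were the marker genes singled out.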

Additional observations from a re-analysis of the deposited data

How the results depend on the processing

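The count of 7 lowered enzymes was 7 under each of the 12 alternatives at the same limit: DESeq2, other size factors, other filters, the replicate block and each library left out. With the replicate block 7 enzymes were lowered and 0 raised, and the block changed none of the enzymes' calls. Same-numbered libraries did not deviate together (correlations -0.0181, 0.0369 and 0.0070). HMGCS1 ranged from -1.02 to -0.98 in log2 fold change, MVK from -0.68 to -0.64, IDI1 from -0.59 to -0.55, and PMVK from -0.15 to -0.081 with adjusted p-values of 0.0382 to 0.290. IDI1 passed the 1.5-fold limit without control replicate 1 and without ADP-CM replicate 2, which made 3 enzymes. The 56 step ratios refitted with 1 read added or with a library left out kept their direction, but HMGCS1 over ACAT2 ranged from -1.21 to -0.64 and SQLE over FDFT1 from 0.017 to 0.051. Another gene length cancels in these differences.

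Counts that moved were these. DESeq2 lowered 1015 and raised 1124 of all genes, against 1650 and 1707, and lowered 2 of the genes on the non-sterol branches. Leaving out single libraries gave 3 to 5 there. Raised enzymes after squalene epoxide numbered 1 with no filter, with at least 10 reads in every library and at an adjusted p under 0.05, and 0 to 1 with single libraries left out. Raised genes of SREBP control numbered 2 at an adjusted p under 0.05. The sign of ACAT2 turned without control replicate 1 (0.016), without control replicate 3 (0.14) and without ADP-CM replicate 1 (0.066), within a range from -0.35 to 0.14, and with at least 10 reads required in every library ACAT2 was left out. The cause was not tested. ACAT2 was counted at 6 to 13 reads per library and each other enzyme at 313 or more, so that small changes of ACAT2 were not detectable.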
